A study of Mus musculus with 6 samples.

Results

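The expression of 39 genes that write, read or remove DNA methylation and Polycomb histone marks was followed in mouse stem-like medulloblastoma cells carrying CRISPR guides against the long noncoding RNA Miat. The 39 genes were taken by symbol from a list of known factors, out of 24063 gene symbols in the count tables, and all 39 were found and passed the filter on low counts. They were sorted into 12 roles, from the DNA methyltransferases to the subunits of the Polycomb repressive complexes, and lie on 17 chromosomes.

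Medulloblastoma arises in the cerebellum. All 6 samples shared the genotype Math1-Cre; SmoM2, in which Cre driven by Math1 (Atoh1, a gene of the granule neuron lineage) switches on an active form of the Hedgehog transducer Smoothened. The control group carried the guide sgGal4-4, named for a yeast transcription factor, and its cells are labelled WT although they share the tumour genotype. The groups sgMiat-6 and sgMiat-96 carried 2 different guides to Miat and are labelled as Miat knockdown, and each of the 3 groups had 2 libraries. The labels do not say whether the guide-bearing cells were clones or pools, or whether the replicates were separate cultures, so p-values measure only the spread between these samples, which may be technical.

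DNA methyltransferases add methyl groups to cytosines of CG dinucleotides, and UHRF proteins bring the maintenance enzyme to newly copied DNA. TET enzymes oxidise the methyl group as a step towards its removal, and some, not all, MBD proteins bind methylated DNA. Polycomb repressive complex 2 (PRC2) methylates histone H3 and Polycomb repressive complex 1 (PRC1) ubiquitinates histone H2A, and both keep developmental genes silent. In granule neuron progenitors and in Hedgehog medulloblastoma these systems are known to hold back genes of other lineages and of differentiation.

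The deposited counts summed to between 18438899 and 19650270 per library over the transcript row kept for each gene. Levels are given as CPM, counts scaled to the size of each library with TMM factors. Miat itself had 7.21 and 7.04 CPM in the control, and no read of it was counted under either Miat guide. Of 20 markers of granule progenitors and Hedgehog tumours 15 stood above 1 CPM in every library, with a summed level of 1971 to 2080 CPM in the control, 3025 to 3441 CPM in sgMiat-6 and 2546 to 2677 CPM in sgMiat-96. Of the 18 tested, 9 rose and 7 fell with both guides, so the sums do not stand for every marker. Of all genes tested, 33.1% rose and 33.4% fell in that comparison, a background for each marker count given here. Among the 20 listed, Atoh1 was at 0 in all 6 libraries and Barhl1 at or near 0. Of the stem cell markers Prom1 was at or near 0, and Sox2, Nes and Olig2 stood at 213 CPM or more in every library. Of 9 tested stem cell markers 3 rose and 4 fell with both guides. The summed level of the stem cell markers was 4700 to 4868 CPM in the control, 6668 to 7307 CPM in sgMiat-6 and 7500 to 8000 CPM in sgMiat-96. Of 9 tested astrocyte markers 8 fell and 1 rose, and their summed level was 3767 to 3894 CPM in the control, 1096 to 1154 CPM in sgMiat-6 and 1149 to 1209 CPM in sgMiat-96. Markers of microglia and of endothelial and mural cells each summed to at most 8.26 CPM in any library. Among them Cx3cr1, C1qa and Cldn5 had no counts, like the astrocyte gene Gja1. Of 2 tested microglia markers 1 rose and 1 fell, and all 3 tested endothelial and mural markers fell. Fibroblast and meningeal markers, of which 3 of 4 tested rose and 1 fell, summed to 8.11 to 10.25 CPM in the control, 35.2 to 35.4 CPM in sgMiat-6 and 49.1 to 53.6 CPM in sgMiat-96. Oligodendrocyte markers, of which 1 of 4 tested rose and 2 fell, summed to 160.0 to 181 CPM in the control and 43.3 to 54.2 CPM in the Miat libraries. Neuron markers, of which 1 of 3 tested rose and 1 fell, summed to 750.3 to 751 CPM in the control, 369 to 501 CPM in sgMiat-6 and 294 to 300.5 CPM in sgMiat-96. The part of these cell markers in the changes of the 39 genes was not tested. Fewer cells of a type and less RNA per cell cannot be told apart in bulk libraries.

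With both Miat guides against sgGal4-4, 12 of the 39 genes rose, 13 fell and 14 were not called by edgeR's quasi-likelihood test at an adjusted p under 0.05. Over all 13220 genes tested, 66.5% were called in that comparison, 33.1% higher and 33.4% lower, so the members' share of 64.1% was near the background. Phf19 had no counts in the control and passed the filter only through the Miat libraries. Among the 38 members with counts in the control, 11 rose and 13 fell, and the median log2 fold change was -0.02, against 0.00 for all genes tested. The uncalled members had log2 fold changes between -0.38 and 0.28.

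With sgMiat-6 alone, 11 members rose and 10 fell, where 53.0% of all genes were called, 26.9% higher and 26.1% lower. With sgMiat-96 alone, 11 rose and 15 fell, where 68.2% of all genes were called, 34.0% higher and 34.2% lower. Counted by library, all 4 Miat libraries lay above both control libraries for 15 members and below both for 14, and 10 members overlapped. Of all genes tested, 34.0% lay above without overlap and 33.0% below. The members as a set therefore showed no surplus of calls, and what follows describes which members moved within it.

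**Figure D1:**
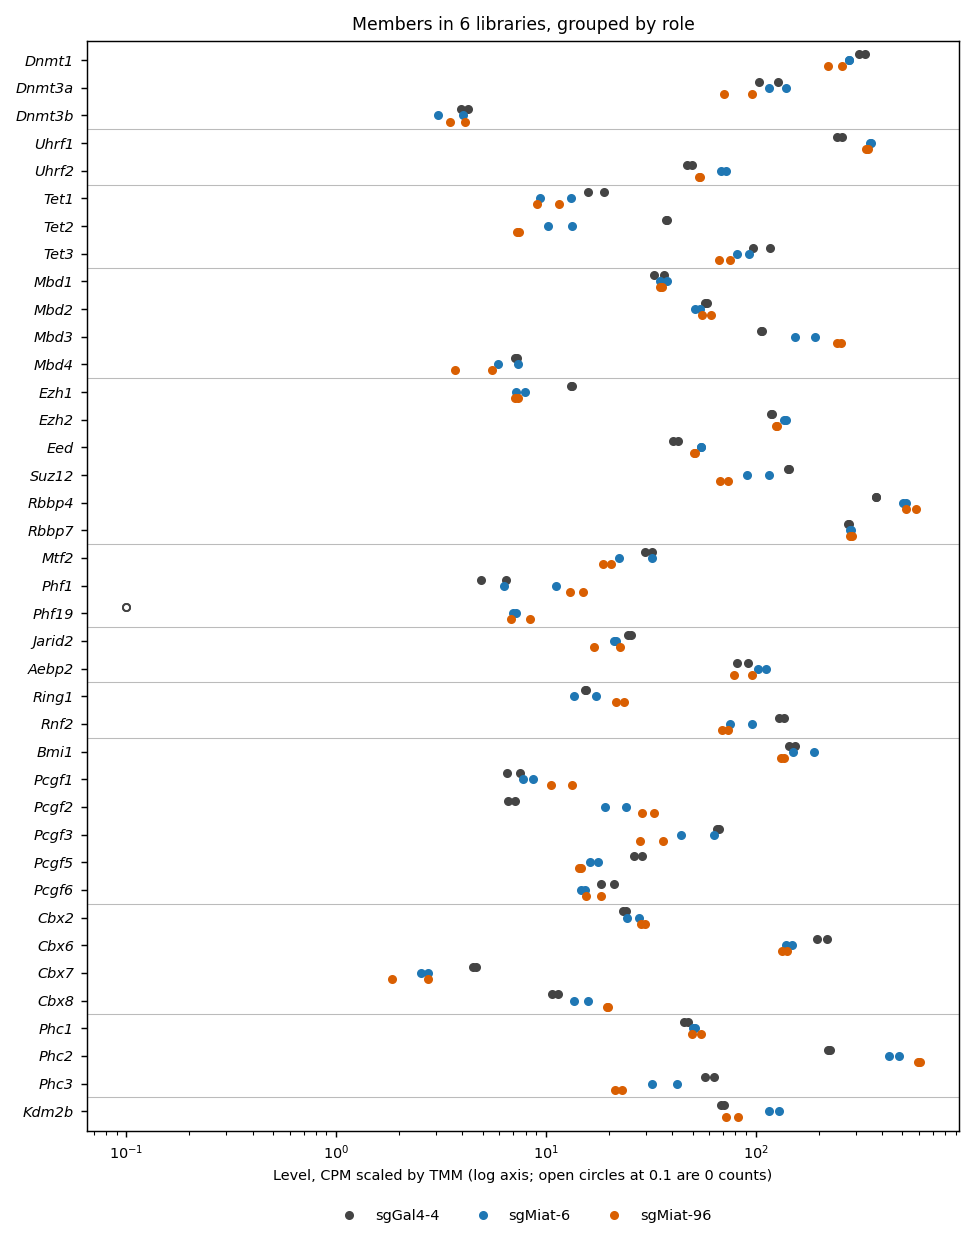
Level of each of the 39 genes in the 6 libraries, as CPM scaled by TMM on a log axis, with genes grouped by role between grey lines and 1 point per library coloured by guide. Phf19 has 0 counts in both control libraries (open circles), Tet2 and Phc3 are lower in all 4 Miat libraries, and Pcgf2, Phc2 and Mbd3 are higher in all 4.

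Fold changes in these libraries ran with transcript length, which bears on every result that follows. Over all genes, the median log2 fold change with both guides was 0.57 for transcripts under 1 kb and -0.84 for transcripts over 10 kb. The range was wider with sgMiat-96, 0.81 to -1.15, than with sgMiat-6, 0.33 to -0.52. Reads lying only in the 5′ extension of the longer of 2 transcript rows, summed over 157 genes, made up 6.32% and 5.60% of reads in sgGal4-4, 5.12% and 4.02% in sgMiat-6, and 2.22% and 3.19% in sgMiat-96. The corresponding share in 3′ extensions, over 29 genes, rose from 28.5% and 29.0% to 31.6% and 39.1%, and to 49.4% and 45.6%. The libraries of sgMiat-96 thus held fewer reads far from the 3′ end than the others.

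The 39 genes followed the same pattern. Members that rose had a median transcript length of 2651 bases and members that fell 4705 bases, and across the 39 members length and log2 fold change had a Spearman rho of -0.44, given as a description. A second fit removed the length trend of each library with a smooth offset. In it 14 members rose and 10 fell with both guides, where the all-gene counts were 4348 higher and 4259 lower. Of the 25 members called without that correction, 17 kept their call and direction, 7 were no longer called, and Tet3 was called in the opposite direction. Values with the length trend removed are therefore set beside most results of the fit that keeps it. Results given without one are from the fit that keeps the trend.

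**Figure D2:**
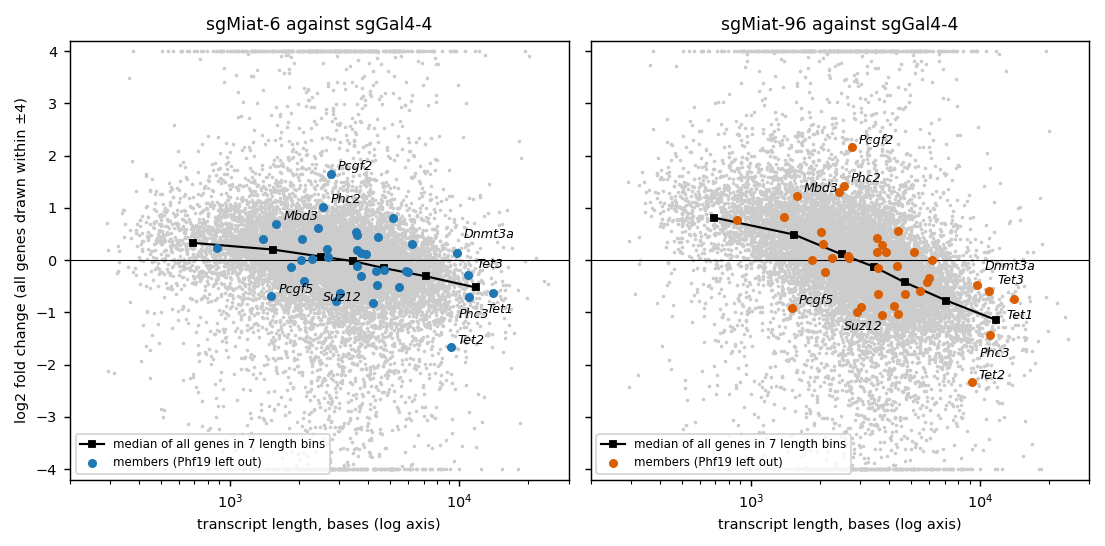
Log2 fold change against transcript length in bases (log axis) for sgMiat-6 and sgMiat-96, each against sgGal4-4, with all tested genes in grey, the median of 7 length bins in black and 38 members in colour (Phf19 left out). The black line falls from 0.33 to -0.52 with sgMiat-6 and from 0.81 to -1.15 with sgMiat-96, and Tet2, Pcgf2 and Phc2 lie far from it in both panels.

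Among the 3 DNA methyltransferases, the maintenance enzyme Dnmt1 was lower with both guides, but not once the length trend was removed. Dnmt1 had 332 and 312 CPM in sgGal4-4, 279 and 278 CPM in sgMiat-6, and 222 and 259 CPM in sgMiat-96. All 4 Miat libraries lay below both controls, with a log2 fold change of -0.32 ± 0.09 (adjusted p = 0.00768). With the length trend removed the value was 0.11 (adjusted p = 0.186), so its sign turned. Per kb of transcript, Dnmt1 was the most abundant of the 3 in the control, at 54.8 CPM per kb, against 11.8 for Dnmt3a and 0.951 for Dnmt3b.

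Dnmt3a, the main de novo methyltransferase, had 127 and 103 CPM in sgGal4-4, 139 and 116 CPM in sgMiat-6, and 71 and 95.6 CPM in sgMiat-96. The sgMiat-6 libraries overlapped the control and the sgMiat-96 libraries lay below it. With both guides the log2 fold change was -0.16 ± 0.13 (adjusted p = 0.292), and with sgMiat-96 alone Dnmt3a fell by 0.47 on the log2 scale (adjusted p = 0.0154). With the length trend removed it was instead higher, at 0.58 (adjusted p = 5.71e-05) with both guides and 0.55 (adjusted p = 2.60e-04) with sgMiat-96. Its transcript is 9735 bases long, and the reads that tell the longest row from a row of 8913 bases numbered 201 and 162 in sgGal4-4, 208 and 76 in sgMiat-6, and 7 and 16 in sgMiat-96. Dnmt3b, the other de novo enzyme, stood between 3.06 and 4.28 CPM in the 6 libraries, with a log2 fold change of -0.17 ± 0.21 (adjusted p = 0.504).

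The UHRF adaptors rose. Uhrf1, which recognises half-methylated DNA behind the replication fork and recruits Dnmt1, had 259 and 244 CPM in sgGal4-4, 353 and 352 CPM in sgMiat-6, and 334 and 344 CPM in sgMiat-96. The 4 Miat libraries were close to one another and all above the control, with a log2 fold change of 0.46 ± 0.09 (adjusted p = 3.82e-04) that was 0.57 (adjusted p = 8.91e-06) without the length trend. Uhrf2, a related protein, rose by 0.35 ± 0.10 (adjusted p = 0.00708) with both guides, by 0.54 ± 0.11 (adjusted p = 0.00129) with sgMiat-6 and by 0.15 ± 0.11 (adjusted p = 0.241) with sgMiat-96, where it did not pass the test. Uhrf2 was also called with sgMiat-96 once the length trend was removed, at 0.32 (adjusted p = 0.00707). In the same libraries 19 of 28 genes of DNA replication and S phase rose and 2 fell. Of all genes tested, 33.1% rose and 33.4% fell.

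The TET oxidases were lower with the Miat guides, and Tet2 had the largest fold change of the members with counts in the control. The largest was that of Pcgf2 once the length trend was removed. Tet2 had 37.6 and 37.2 CPM in sgGal4-4, 13.3 and 10.3 CPM in sgMiat-6, and 7.48 and 7.27 CPM in sgMiat-96. Both control libraries were at nearly the same level, and the highest Miat library was far below them. The log2 fold change was -2.004 ± 0.13 (adjusted p = 3.11e-08) with both guides, -1.67 ± 0.16 (adjusted p = 1.66e-06) with sgMiat-6 and -2.34 ± 0.16 (adjusted p = 8.72e-08) with sgMiat-96. With the length trend removed Tet2 still fell, by 1.30 on the log2 scale (adjusted p = 1.66e-06) with both guides and at -1.36 (adjusted p = 7.82e-06) with sgMiat-96.

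Tet1 had 19 and 15.8 CPM in sgGal4-4, 13.1 and 9.34 CPM in sgMiat-6, and 9.11 and 11.6 CPM in sgMiat-96, and its log2 fold change was -0.69 ± 0.17 (adjusted p = 0.00259). Tet3, the most abundant TET gene per kb in the control at 9.80 CPM per kb, had 117 and 96.7 CPM in sgGal4-4, 92.6 and 81.9 CPM in sgMiat-6, and 66.5 and 75.2 CPM in sgMiat-96. Its log2 fold change was -0.44 ± 0.11 (adjusted p = 0.00268). Tet1 and Tet3 have transcripts of 14082 and 10906 bases, and with the length trend removed their signs turned, to 0.26 (adjusted p = 0.083) and 0.37 (adjusted p = 6.34e-04). Of the 3 oxidases, Tet2 was thus the one that was lower in both fits.

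Shares of a family's summed expression per kb are from levels that keep the length trend, and none was computed with it removed. Of the summed TET expression, Tet2 made up 25.3% and 28.9% in sgGal4-4, 13.3% and 12% in sgMiat-6, and 10.8% and 9.31% in sgMiat-96. The share of Tet3 was larger with the Miat guides, at 66.3% and 63.2% in sgGal4-4, 78.1% and 80.8% in sgMiat-6, and 80.7% and 81% in sgMiat-96, while Tet1 stayed between 7.14% and 9.68%.

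The start region of Tet2 is shown because Tet2 was the member with the largest fall. Tet2 lies at chr3:133463677-133545136 on the minus strand of GRCm38, and its region in the RefSeq table belongs to a transcript start 746 bases inside that span. The 250 bases before that start (GRCm38.p6, chr3:133544391-133544640) hold 51 CG dinucleotides, printed in capitals, 5′ to 3′ on the gene's strand:
Tet2: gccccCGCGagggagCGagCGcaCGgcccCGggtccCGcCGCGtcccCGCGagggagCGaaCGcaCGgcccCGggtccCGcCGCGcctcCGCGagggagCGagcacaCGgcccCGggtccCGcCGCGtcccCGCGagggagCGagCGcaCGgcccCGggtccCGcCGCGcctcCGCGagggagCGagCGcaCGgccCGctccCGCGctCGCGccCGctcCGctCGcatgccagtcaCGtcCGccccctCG

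Of the 4 MBD genes, Mbd3 alone rose with both guides, and the other three had log2 fold changes of 0.05 (Mbd1), -0.06 (Mbd2) and -0.38 (Mbd4) that did not pass the test. Mbd3 is a subunit of the NuRD remodelling and deacetylase complex and was the most abundant MBD gene per kb in the control. It had 107 and 106 CPM in sgGal4-4, 154 and 191 CPM in sgMiat-6, and 255 and 244 CPM in sgMiat-96. The groups did not overlap, and sgMiat-96 lay above sgMiat-6. Mbd3 rose by 0.96 ± 0.10 (adjusted p = 3.67e-06) with both guides, and by 0.65 (adjusted p = 1.17e-05) with the length trend removed. Mbd4, a glycosylase that repairs deaminated methylcytosine, fell with sgMiat-96, at a log2 fold change of -0.64 ± 0.23 (adjusted p = 0.0252), but not with sgMiat-6, at -0.11 ± 0.22 (adjusted p = 0.688); the difference between the guides did not pass the test (-0.53 ± 0.23 (adjusted p = 0.0909)). Mbd4 was not called with sgMiat-96 either once the length trend was removed, at -0.47 (adjusted p = 0.0881). Mbd2, which links methylated DNA to NuRD, had -0.30 (adjusted p = 0.00518) with the length trend removed.

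In the PRC2 core, Suz12 and Ezh1 fell, Eed and Rbbp4 rose, and Ezh2 and Rbbp7 were not called. Suz12, the scaffold subunit of the complex, had 143 and 144 CPM in sgGal4-4, 116 and 90.7 CPM in sgMiat-6, and 67.4 and 73.5 CPM in sgMiat-96. The levels ran from the control through sgMiat-6 to sgMiat-96 with no overlap between the 3 groups. The log2 fold change of Suz12 was -0.48 ± 0.12 (adjusted p = 0.00591) with sgMiat-6 and -1.03 ± 0.13 (adjusted p = 1.11e-05) with sgMiat-96, and for both guides -0.54 (adjusted p = 7.75e-05) with the length trend removed.

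Ezh1 and Ezh2 are the alternative methyltransferases of PRC2. Ezh1, the form typical of non-dividing cells, had 13.4 and 13.2 CPM in sgGal4-4, 7.19 and 7.91 CPM in sgMiat-6, and 7.14 and 7.39 CPM in sgMiat-96, which is a log2 fold change of -0.84 ± 0.14 (adjusted p = 1.69e-04). With the length trend removed Ezh1 was at -0.65 (adjusted p = 0.00124). Ezh2, the form of dividing cells, had a mean of 119 CPM in the control and a log2 fold change of 0.14 ± 0.09 (adjusted p = 0.162). Of the summed EZH expression per kb, Ezh1 made up 6.63% and 6.56% in sgGal4-4, 3.17% and 3.54% in sgMiat-6, and 3.50% and 3.57% in sgMiat-96, and Ezh2 supplied the remainder.

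Eed, the subunit that binds the methylated histone, rose by 0.36 ± 0.10 (adjusted p = 0.00619), and by 0.17 (adjusted p = 0.076) with the length trend removed, where it did not pass the test. Of the 2 histone-binding subunits, Rbbp4 rose and Rbbp7 stayed within a narrow range. Rbbp4 had 374 and 376 CPM in sgGal4-4, 519 and 502 CPM in sgMiat-6, and 578 and 522 CPM in sgMiat-96, a log2 fold change of 0.50 ± 0.09 (adjusted p = 2.48e-04). With the length trend removed Rbbp4 was at 0.73 (adjusted p = 5.71e-06). Rbbp7, the member with the highest control level per kb at 122 CPM per kb, had 275 and 279 CPM in sgGal4-4, 280.0 and 286 CPM in sgMiat-6, and 281 and 286 CPM in sgMiat-96, which is 0.03 ± 0.08 (adjusted p = 0.738). Rbbp4 and Rbbp7 overlap the protein-coding genes Sync and Txlng by 2284 and 174 bases, and the labels do not say whether counting used strand.

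The Polycomb-like subunits Mtf2, Phf1 and Phf19 bind CG-rich DNA and bring PRC2 to it. Phf19 was the single member that went from no counts to a measurable level. It had 0 counts in both control libraries, 145 and 137 counts in sgMiat-6, and 121 and 146 counts in sgMiat-96. In CPM the Miat libraries stood at 7.19 and 6.99 with sgMiat-6 and at 6.80 and 8.43 with sgMiat-96. Against a floor of 3 counts over the control group, Phf19 was at least 95.7-fold higher with both guides, at least 92.6-fold with sgMiat-6 and at least 99.2-fold with sgMiat-96, and floors cover counting error only.

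Across all genes, 55 were switched on in the same sense, with at most 3 counts together in the control and at least 5 CPM in every Miat library, and 13 were switched off. Phf19 was the 1 member among these 68. It has 1 transcript row, lies at chr2:34893752-34914353, and shares its counts with no other gene.

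Phf1 had 4.89 and 6.49 CPM in sgGal4-4, 6.35 and 11.1 CPM in sgMiat-6, and 14.9 and 13 CPM in sgMiat-96. One sgMiat-6 library lay within the control range and the other above it. Phf1 rose by 0.96 ± 0.22 (adjusted p = 0.00207) with both guides and by 1.30 ± 0.25 (adjusted p = 4.61e-04) with sgMiat-96, while with sgMiat-6 the value was 0.62 ± 0.25 (adjusted p = 0.0567). With the length trend removed the value of Phf1 with both guides was 0.87 (adjusted p = 0.00459). Mtf2, the most abundant of the 3 per kb in the control, had 32 and 29.6 CPM in sgGal4-4, 32 and 22.3 CPM in sgMiat-6, and 18.8 and 20.4 CPM in sgMiat-96. With both guides it fell by 0.42 on the log2 scale (adjusted p = 0.019), and with the length trend removed the value was -0.15 (adjusted p = 0.266).

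Per kb, Mtf2 made up 77.1% and 70.2% in sgGal4-4, 59.99% and 42.4% in sgMiat-6, and 33.4% and 36.3% in sgMiat-96 of the summed Polycomb-like expression, from levels in which the longer Mtf2 transcript keeps its length trend. Phf1 made up 22.9% and 29.8% in sgGal4-4, 23.1% and 40.9% in sgMiat-6, and 51.5% and 44.9% in sgMiat-96. Phf19 added between 15.2% and 18.8% in the Miat libraries from none in the control.

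The start region of Phf19 is shown because Phf19 was the one member without control counts. The start in the RefSeq table lies 377 bases inside the gene's span, and the 250 bases before it (GRCm38.p6, chr2:34913977-34914226, minus strand) hold 31 CG dinucleotides, in capitals:
Phf19: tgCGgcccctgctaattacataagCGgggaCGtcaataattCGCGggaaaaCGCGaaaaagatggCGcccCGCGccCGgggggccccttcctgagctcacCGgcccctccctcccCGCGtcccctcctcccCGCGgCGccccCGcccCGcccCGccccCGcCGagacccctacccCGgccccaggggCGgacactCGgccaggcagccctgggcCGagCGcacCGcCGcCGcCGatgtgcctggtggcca

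The other PRC2 partners, Jarid2 and Aebp2, were not called with both guides. Jarid2, which helps PRC2 to bind chromatin, had a log2 fold change of -0.29 ± 0.13 (adjusted p = 0.0706). Aebp2, the more abundant of the pair per kb, had 92 and 81.7 CPM in sgGal4-4, 112 and 103 CPM in sgMiat-6, and 78.8 and 95.8 CPM in sgMiat-96. The sgMiat-96 libraries overlapped the control. The log2 fold change was 0.16 ± 0.11 (adjusted p = 0.21) with both guides. With sgMiat-6 it was 0.31, called at an adjusted p of 0.049997, at the edge of the threshold. With the length trend removed Aebp2 rose by 0.61 (adjusted p = 2.68e-05) with both guides and by 0.57 (adjusted p = 1.58e-04) with sgMiat-6.

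**Figure D3:**
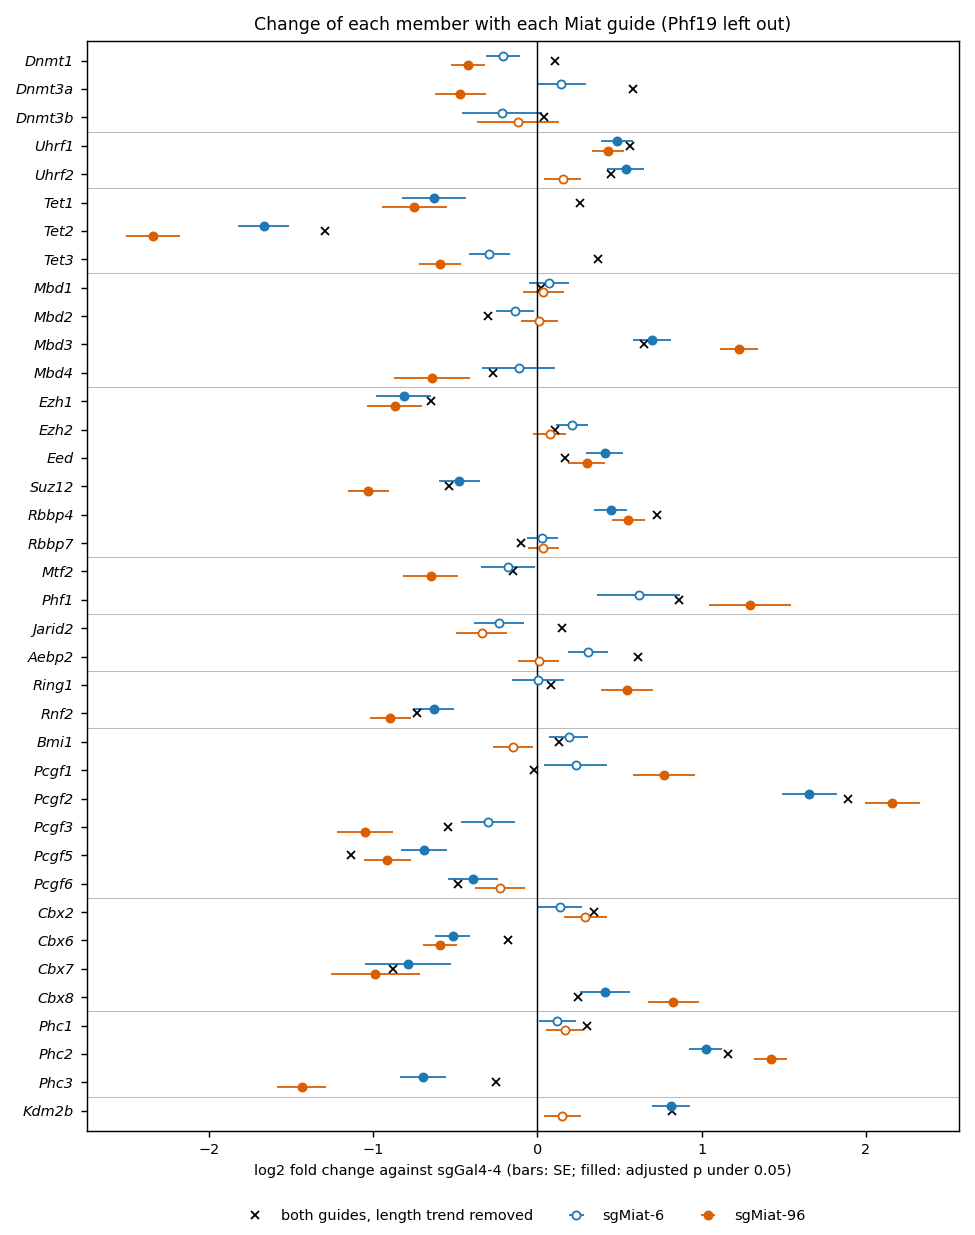
Log2 fold change of 38 members (Phf19 left out) against sgGal4-4 with sgMiat-6 (blue) and sgMiat-96 (orange), with bars for the SE and filled points for an adjusted p under 0.05, and crosses for both guides with the length trend removed. Tet2 lies lowest and Pcgf2 highest with both guides, and the crosses of Tet1, Tet3, Dnmt1 and Dnmt3a lie to the right of 0 while their sgMiat-96 points lie to the left.

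In PRC1, the catalytic RING subunit Rnf2 (RING1B) fell and its partner form Ring1 was not called with both guides. Rnf2, the more abundant of the pair, had 129.7 and 136 CPM in sgGal4-4, 96.1 and 75.4 CPM in sgMiat-6, and 69.3 and 73.4 CPM in sgMiat-96. All 4 Miat libraries were below both controls, and the log2 fold change was -0.76 ± 0.11 (adjusted p = 3.15e-05), or -0.73 (adjusted p = 2.12e-05) with the length trend removed. Ring1 (RING1A) had 0.28 ± 0.14 (adjusted p = 0.093) with both guides, 0.01 ± 0.16 (adjusted p = 0.979) with sgMiat-6 and 0.55 ± 0.16 (adjusted p = 0.00737) with sgMiat-96. Its sgMiat-96 value with the length trend removed was 0.27 (adjusted p = 0.0945), which did not pass the test. The share of Rnf2 in the summed RING expression per kb was 84.9% and 85.6% in sgGal4-4, 82.6% and 74.5% in sgMiat-6, and 66.4% and 69.7% in sgMiat-96.

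The 6 PCGF subunits, which set the type of PRC1, moved in both directions. Pcgf2 (MEL18) and Bmi1 (PCGF4) are found in canonical PRC1, which also carries CBX and PHC subunits. Pcgf2 had 6.59 and 7.09 CPM in sgGal4-4, 19.1 and 24 CPM in sgMiat-6, and 32.6 and 28.7 CPM in sgMiat-96. The groups did not overlap, and the sgMiat-96 libraries were the highest. Pcgf2 rose by 1.91 ± 0.15 (adjusted p = 2.42e-07) with both guides, 1.66 ± 0.17 (adjusted p = 3.55e-06) with sgMiat-6 and 2.16 ± 0.17 (adjusted p = 2.06e-07) with sgMiat-96, and removing the length trend left it at 1.89 (adjusted p = 5.25e-07). Bmi1, the most abundant PCGF gene per kb in the control, had 145 and 154 CPM in sgGal4-4, 189.7 and 151 CPM in sgMiat-6, and 137 and 132 CPM in sgMiat-96. These overlapped, and the log2 fold change was 0.02 ± 0.10 (adjusted p = 0.872).

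The other PCGF subunits belong to variant forms of PRC1. With both guides Pcgf3 fell by 0.68 and Pcgf5 by 0.80 on the log2 scale (adjusted p = 9.22e-04 and 5.42e-05). Pcgf5 had 26.2 and 28.6 CPM in sgGal4-4, 17.8 and 16.2 CPM in sgMiat-6, and 14.8 and 14.3 CPM in sgMiat-96, with no overlap, and with the length trend removed it was lower still, at -1.14 (adjusted p = 4.42e-06). Pcgf3 had 66.8 and 65.6 CPM in sgGal4-4, 63.5 and 44 CPM in sgMiat-6, and 27.9 and 36 CPM in sgMiat-96, and the fall with sgMiat-6 alone did not pass the test, at -0.30 ± 0.17 (adjusted p = 0.144). With the length trend removed Pcgf3 was at -0.55 (adjusted p = 0.00198) with both guides. Pcgf1 rose by 0.50 ± 0.17 (adjusted p = 0.0179), but its transcript is 874 bases long and with the length trend removed its sign turned, to -0.02 (adjusted p = 0.89). Pcgf6 had -0.31 ± 0.13 (adjusted p = 0.0509), and -0.49 (adjusted p = 0.00287) with the length trend removed.

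Of the summed PCGF expression per kb, Pcgf2 made up 2.55% and 2.56% in sgGal4-4, 6.64% and 9.68% in sgMiat-6, and 13% and 12.1% in sgMiat-96. Bmi1 remained the largest part in every library, between 41.8% and 50.4%. The part of Pcgf3 and Pcgf5 together was smaller in the Miat libraries, with Pcgf5 at 18.5% and 18.8% in the control and between 10.7% and 11.9% with the Miat guides.

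The start region of Pcgf2 is shown because Pcgf2 had the largest rise among members with control counts and because the region given for it is poor in CG. Pcgf2 lies at chr11:97688821-97702434, and that region belongs to a start 2786 bases inside the span. Outer starts were not analysed here. The 250 bases before the start used (GRCm38.p6, chr11:97699649-97699898, minus strand) hold 5 CG dinucleotides, in capitals:
Pcgf2: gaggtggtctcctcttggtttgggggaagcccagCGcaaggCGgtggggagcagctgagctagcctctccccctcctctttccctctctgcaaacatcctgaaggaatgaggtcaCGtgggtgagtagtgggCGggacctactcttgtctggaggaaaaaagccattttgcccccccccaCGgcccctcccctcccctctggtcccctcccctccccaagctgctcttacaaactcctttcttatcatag

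Of the CBX subunits, which read the histone mark set by PRC2, Cbx6 and Cbx7 fell and Cbx8 rose. Cbx6, the most abundant per kb in the control, had 218 and 196 CPM in sgGal4-4, 139.7 and 149 CPM in sgMiat-6, and 134 and 140.5 CPM in sgMiat-96. All 4 Miat libraries lay below both controls, the sgMiat-6 and sgMiat-96 libraries overlapped, and the log2 fold change was -0.56 ± 0.09 (adjusted p = 1.07e-04), while with the length trend removed it was -0.18 (adjusted p = 0.065). Cbx6 overlaps the gene Npcd over 10436 bases, so its counts are uncertain where counting did not use strand. Cbx7 was low, between 1.85 and 4.66 CPM, and fell by 0.89 on the log2 scale (adjusted p = 0.00349), with and without the length trend at nearly the same value. It overlaps Apobec3 by 2415 bases.

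Cbx8 had 11.4 and 10.7 CPM in sgGal4-4, 13.6 and 15.8 CPM in sgMiat-6, and 19.6 and 19.7 CPM in sgMiat-96. It rose by 0.62 ± 0.14 (adjusted p = 0.00128), and by 0.25 (adjusted p = 0.0853) with the length trend removed, where it did not pass the test. Cbx2 was not called, at 0.21 ± 0.12 (adjusted p = 0.117), but was with the length trend removed, at 0.35 (adjusted p = 0.00655). Per kb, Cbx6 made up 71.5% and 69.5% in sgGal4-4, 58.6% and 59.3% in sgMiat-6, and 52% and 53.1% in sgMiat-96 of the summed CBX expression, and Cbx8 made up 14.6% and 14.9% in sgGal4-4, 22.4% and 24.6% in sgMiat-6, and 29.8% and 29.2% in sgMiat-96.

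The polyhomeotic subunits, which join PRC1 particles to one another through their SAM domains, moved apart. Phc2, the most abundant of the 3 and the most abundant PRC1 gene per kb in the control at 87.8 CPM per kb, had 222 and 226 CPM in sgGal4-4, 432 and 479.7 CPM in sgMiat-6, and 593 and 605 CPM in sgMiat-96. Each Miat library was well above both controls, and Phc2 rose by 1.22 ± 0.09 (adjusted p = 1.29e-07) with both guides, 1.03 ± 0.10 (adjusted p = 2.84e-06) with sgMiat-6 and 1.42 ± 0.10 (adjusted p = 1.08e-07) with sgMiat-96. Removing the length trend left 1.16 (adjusted p = 4.88e-08).

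Phc3 had 63 and 57.2 CPM in sgGal4-4, 42.1 and 31.9 CPM in sgMiat-6, and 21.4 and 23 CPM in sgMiat-96, and with both guides it fell by 1.07 on the log2 scale (adjusted p = 5.14e-06). Its transcript has 11066 bases, and with the length trend removed the log2 fold change was -0.25 (adjusted p = 0.022). Phc1 was not called, at 0.14 ± 0.10 (adjusted p = 0.219), but was with the length trend removed, at 0.30 (adjusted p = 0.00596). Per kb, Phc2 made up 83.4% and 83.6% in sgGal4-4, 91% and 92.2% in sgMiat-6, and 94% and 93.7% in sgMiat-96 of the summed polyhomeotic expression, and Phc3 made up 5.45% and 4.88% in sgGal4-4, 2.05% and 1.41% in sgMiat-6, and 0.782% and 0.819% in sgMiat-96.

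**Figure D4:**
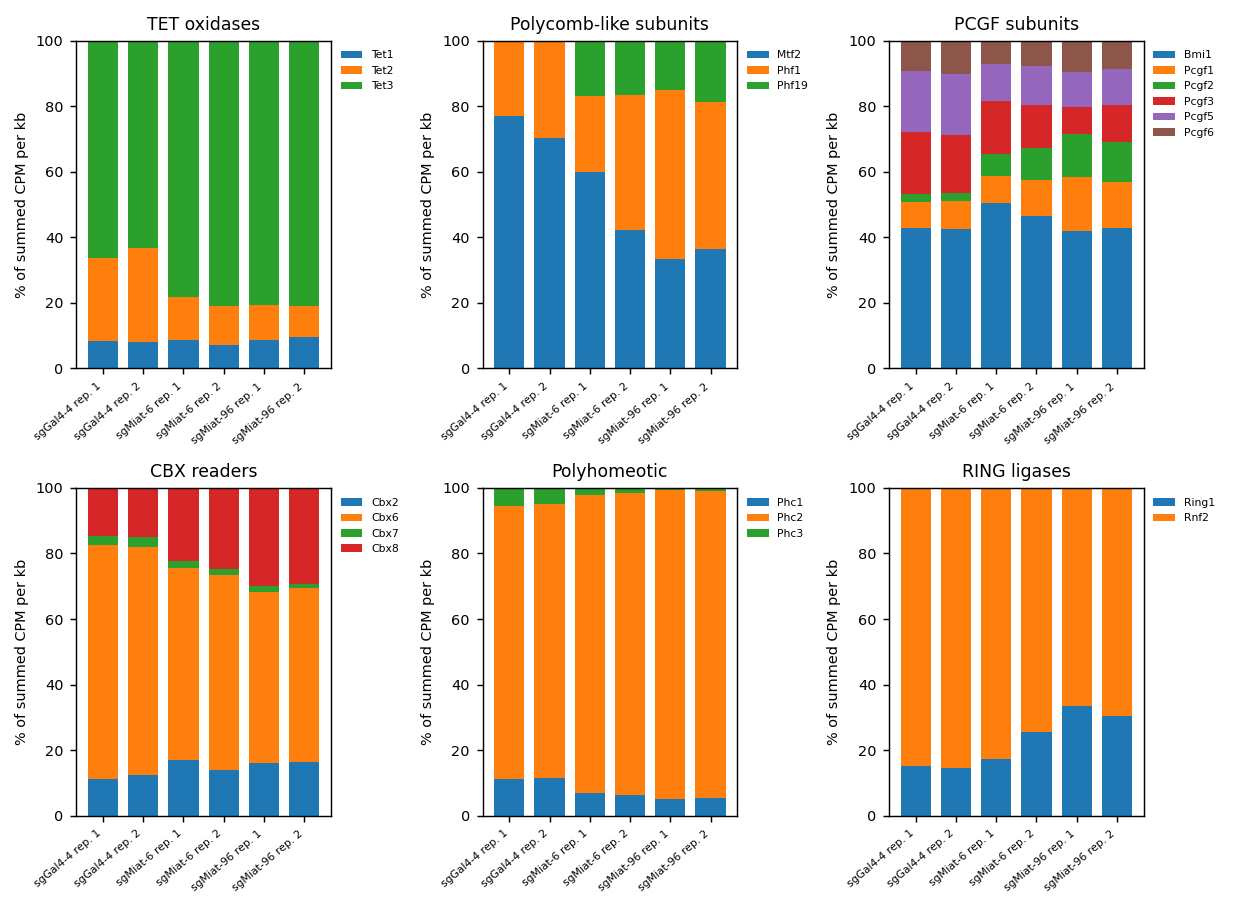
Share of each gene in its family's summed CPM per kb, in percent, for 6 families and the 6 libraries (1 bar per library). Tet2 narrows from 25.3% and 28.9% in the control to 13.3% or less, Phf19 appears in the Miat libraries at 15.2% to 18.8%, Pcgf2 widens from 2.55% to as much as 13.0%, and Phc2 widens from 83.4% to as much as 94.0%.

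Kdm2b, which binds unmethylated CG-rich DNA and recruits a variant PRC1 there, had 68.6 and 70.7 CPM in sgGal4-4, 129 and 116 CPM in sgMiat-6, and 72.3 and 82.4 CPM in sgMiat-96. The sgMiat-6 libraries stood well above the control and the sgMiat-96 libraries just above it. Kdm2b rose by 0.81 ± 0.11 (adjusted p = 6.17e-05) with sgMiat-6, against 0.15 ± 0.11 (adjusted p = 0.254) with sgMiat-96, and the difference of sgMiat-96 from sgMiat-6 was -0.66 ± 0.11 (adjusted p = 0.00153). The reads in its 5′ extension were 15.2% and 15.1% of its counts in sgGal4-4, 10.01% and 7.30% in sgMiat-6, and 2.41% and 4.76% in sgMiat-96. With the length trend removed, Kdm2b rose with each guide, by 1.00 (adjusted p = 1.21e-06) and 0.64 (adjusted p = 3.25e-05), and the difference between them was -0.36 (adjusted p = 0.00853).

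The 2 Miat guides differed from one another at 16 of the 39 genes, where 36.7% of all genes were called, 17.9% higher with sgMiat-96 and 18.8% lower. Higher with sgMiat-96 were 7 members and lower 9. Tet2 and Phc3 fell further with sgMiat-96, with log2 differences of -0.68 and -0.74 between the guides (adjusted p = 0.00888 and 0.00294). Mbd3, Pcgf2 and Phc2 stood higher with sgMiat-96, by 0.53, 0.51 and 0.39. Suz12 and Pcgf3 stood lower, with log2 differences of -0.55 and -0.75. The differences of Tet2 and Phc3 were no longer called once the length trend was removed, at -0.13 (adjusted p = 0.545) and -0.14 (adjusted p = 0.366). Those of Mbd3 and Suz12 were smaller, at 0.26 (adjusted p = 0.0349) and -0.33 (adjusted p = 0.0229).

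The comparison of the guides rested on single libraries and on the length trend more than the others did. Without sgMiat-96 replicate 1, 1 of the 39 genes was called, and without sgMiat-6 replicate 1, 4 were. With the length trend removed 7 of the 16 were called (Uhrf2, Mbd3, Suz12, Pcgf2, Pcgf3, Phc2 and Kdm2b), and 5 other members were called in that fit alone. The called share was then 30.8% of the members, against 23.9% of all genes tested. Kdm2b was the 1 member called in the guide comparison under all 14 alternative settings.

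Other genes of the DNA methylation pathway, 20 listed and 18 tested, gave 4 higher and 7 lower with both guides. That is 61.1% called, against 66.5% of all genes tested. Hells, a remodeller needed for methylation of repeats, had 64 CPM in sgGal4-4, 58 in sgMiat-6 and 35.7 in sgMiat-96, a log2 fold change of -0.49 (adjusted p = 0.00244). With the length trend removed Hells was at -0.46 (adjusted p = 0.00203). Apex1, an endonuclease of base excision repair that completes demethylation, rose by 1.05 (adjusted p = 1.34e-06), and by 0.65 (adjusted p = 7.75e-06) with the length trend removed. Gadd45a, a DNA damage response gene linked to demethylation, had 268 CPM in sgGal4-4, 141 in sgMiat-6 and 206 in sgMiat-96, a change of -0.65 (adjusted p = 1.40e-05), and of -1.08 (adjusted p = 8.45e-08) with the length trend removed.

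Of 28 further Polycomb genes, 26 were tested, and 5 rose and 12 fell. The called share was 65.4%, near the 66.5% of all genes tested. Sfmbt2, a relative of a fly Polycomb protein with MBT domains, had 17.2 CPM in sgGal4-4, 3.81 in sgMiat-6 and 2.71 in sgMiat-96, a log2 fold change of -2.41 (adjusted p = 4.53e-07) that was -1.81 (adjusted p = 5.72e-06) without the length trend. Bcor, a subunit of the variant PRC1 that holds Pcgf1 and Kdm2b, had 40.1 CPM in sgGal4-4, 18 in sgMiat-6 and 12.1 in sgMiat-96, a change of -1.44 (adjusted p = 6.50e-07), and of -0.91 (adjusted p = 9.01e-06) with the length trend removed. Mga, a DNA-binding partner in the variant PRC1 that holds Pcgf6, had -1.05 (adjusted p = 7.24e-06), but -0.10 (adjusted p = 0.298) with the length trend removed. Lcorl, a partner of the PRC2 form that holds the Polycomb-like subunits, fell by 1.22 on the log2 scale (adjusted p = 3.72e-07).

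Genes that oppose Polycomb repression, such as those of trithorax complexes, numbered 21 tested, of which 4 rose and 13 fell, with a median log2 fold change of -0.49. The called share was 80.95%, against 66.5% of all genes tested. Several of these genes have long transcripts, and with the length trend removed 7 rose and 8 fell, with a median of -0.02. The share was then 71.4%, against 65.1% of all genes. Kmt2a, a histone H3 methyltransferase that keeps Polycomb targets active, had 106 CPM in sgGal4-4, 44.9 in sgMiat-6 and 24.8 in sgMiat-96, a change of -1.67 (adjusted p = 4.46e-07) that shrank to -0.63 (adjusted p = 3.39e-05). Kmt2c, of the related enhancer complex, had -1.34 (adjusted p = 6.00e-06) and -0.29 (adjusted p = 0.00779) in the 2 fits. Rbbp5, a core subunit shared by these enzymes, had 84.4 CPM in sgGal4-4, 45.2 in sgMiat-6 and 35.8 in sgMiat-96, a change of -1.07 (adjusted p = 2.71e-06) that remained at -0.95 (adjusted p = 2.89e-06). Foxk1, a DNA-binding partner of the deubiquitinase Bap1, fell by 1.10 on the log2 scale (adjusted p = 1.01e-05), and its value was -0.52 (adjusted p = 4.15e-04) with the length trend removed.

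Genes that supply methyl groups or the substrate of the TET enzymes numbered 15 listed and 14 tested. Of these 14, 3 rose, 4 fell and 7 were not called with both guides. The called share was thus below the 66.5% of all genes tested. Shmt2, the mitochondrial serine hydroxymethyltransferase, had 529 CPM in sgGal4-4, 218 in sgMiat-6 and 256 in sgMiat-96, a log2 fold change of -1.16 (adjusted p = 1.37e-07) that was -1.29 (adjusted p = 1.53e-08) with the length trend removed. Ahcyl1, a relative of adenosylhomocysteinase, fell by 0.97 on the log2 scale (adjusted p = 1.59e-06). Idh2, a mitochondrial source of the oxoglutarate that TET enzymes use, rose by 0.71 (adjusted p = 1.62e-05), and by 0.43 (adjusted p = 4.57e-05) with the length trend removed.

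Germline genes that DNA methylation is known to keep silent were mostly not detected in these cells. Of 27 listed, 4 passed the filter on low counts, which keeps a gene expressed in a single group. The remainder was thus not switched on to the filter's level in either Miat group. Falls could not be seen at such low levels. Rhox5, a homeobox gene of the X chromosome, had 25.8 CPM in sgGal4-4, 1.03 in sgMiat-6 and 2.51 in sgMiat-96, a fall of 4.00 on the log2 scale (adjusted p = 4.70e-10). Xlr3b, another X-linked gene, stood at 26.3 CPM in the control and had no counts with either guide, which is at least 657-fold lower with 3 counts over the group as the floor. It has near-identical copies, among which reads can be split. Brdt, a testis bromodomain gene, had 2.25 CPM in sgGal4-4, 5.25 in sgMiat-6 and 6.26 in sgMiat-96, a rise of 1.35 (adjusted p = 8.46e-05). Sycp3, of the meiotic chromosome axis, was not called, at 0.25 (adjusted p = 0.253).

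Developmental regulators that are classical Polycomb targets moved both ways. Of 44 listed, 18 were tested, and 10 rose and 7 fell. The called share was 94.4%, against 66.5% of all genes tested. Some of them, such as Gata6 and Otx2, passed the filter only through the groups where they were expressed. Otx2, a regulator of forebrain and midbrain, stood at 12.5 CPM in the control and had no counts with either guide, which is at least 312-fold lower. Pax9 had 9.84 CPM in sgGal4-4, 0 in sgMiat-6 and 0.341 in sgMiat-96. Gata6, an endoderm regulator, had 0 counts in the control and 2.94 and 3.78 CPM with the guides, at least 43.6-fold higher. It was chosen after its values were seen.

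Cdkn2a, the cell cycle inhibitor locus that PRC1 with Bmi1 is known to silence, had 154 CPM in sgGal4-4, 62 in sgMiat-6 and 83.5 in sgMiat-96, a fall of 1.10 on the log2 scale (adjusted p = 5.18e-07). Among the listed Hox genes, Hoxa5 stood at 37.7 CPM in sgGal4-4, 36.9 in sgMiat-6 and 43.4 in sgMiat-96 and was not called. It too was named after its values were seen. Of the listed targets, 26 did not pass the filter on low counts, among them Foxa2, Foxd3, Sox17 and Pax3, each at 0 in every library.

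RefSeq start regions (GRCm38.p6, from 250 bases before to 50 after a start) were used for 35 of the 39 genes, with 51 regions among them. For 18 of the 35 a region began at the first base of the gene's span, and for 17 only starts inside the span were used. The members' regions were rich in CG dinucleotides. With the highest region taken for each gene, the observed count over that expected from the C and G content had a median of 0.86, and 32 of the 35 genes (91.4%) reached 0.6. Of the genes tested with a region, 77.7% did, and of all genes 38.6%. Among the switched-on genes with a region, 41 of 55, the share was 68.3% with a median of 0.71, and among the switched-off genes, 8 of 13, it was 4 of 8 with a median of 0.60.

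The letters TTCGCGC and TTGGCGC, forms of the site that E2F factors of the cell cycle bind, were searched on both strands of these regions. Either was found in 8 of the 35 members (22.9%), against 8.49% of tested genes and 4.47% of all genes with a region. Some genes have several regions, and counted by region the shares were 15.7%, 7.04% and 3.89%. The first match of each gene is shown in capitals between up to 10 flanking bases, 5′ to 3′ on the gene's strand, where GCGCGAA is TTCGCGC read on the opposite strand:
Dnmt1 (chr9:20952826-20952852): gtttccgcgcGCGCGAAaaagccgggg
Uhrf1 (chr17:56304119-56304145): cgagtcgggtTTCGCGCgcccaggcgt
Uhrf2 (chr19:30030446-30030472): gagatccgggTTGGCGCcgtgacctcc
Mbd3 (chr10:80399507-80399533): ggtcctgcgaGCGCGAAggggcggggc
Ezh2 (chr6:47595010-47595036): gttgctgcgtTTGGCGCtcggtccggt
Rbbp4 (chr4:129335369-129335395): ttggtcggtgTTGGCGCgaaggcacgc
Pcgf5 (chr19:36348301-36348327): ctccgcccccTTGGCGCgctcgccccg
Cbx6 (chr15:79834436-79834462): tttaagagccTTCGCGCgcccccgccc

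Of these 8 genes, Uhrf1, Uhrf2, Mbd3 and Rbbp4 rose with both guides, Dnmt1, Pcgf5 and Cbx6 fell, and Ezh2 was not called. Over all genes tested, 33.1% rose and 33.4% fell in that comparison. The falls of Dnmt1 and Cbx6 were not called once the length trend was removed. In Rbbp4 both forms of the site occur and overlap. A match of letters is a description of the sequence and shows neither binding nor its absence. The start regions printed for Tet2, Phf19 and Pcgf2 hold neither form.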

How the data were processed

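RNA-seq of 6 samples (3 guide groups, 2 libraries each) was analysed. Per the labels' protocols, 1 µg of total RNA entered an mRNA library kit, and strand is not stated. The submitters' processing notes name STAR as aligner and GRCm38 (mm10) as build. For the STAR version, the counting tool and the release of the annotation, nothing is given in the sources used here. The authors deposited whole-number counts, FPKM and TPM for each of 33984 RefSeq transcript rows, per the file headers. FPKM was used only for transcript lengths and zeros, and TPM was not used. For each symbol the row with the highest total count was kept, and 15 members had several rows. In sgMiat-96 replicate 2, 11223 rows listed at 1 count with an FPKM of 0 were set to 0. The libraries summed to between 18438899 and 19650270 counts, and 3 counts correspond to between 0.149 and 0.173 CPM.

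Counts were tested with edgeR 4.0.16 in R 4.3.3 (filterByExpr, TMM, quasi-likelihood, prior count 0.125). A model of 3 groups had 3 residual degrees of freedom and a coefficient of variation of 0.0986, and p-values were adjusted by Benjamini-Hochberg over 13220 genes. Each SE is the absolute log2 fold change divided by the square root of F, and n is 2 libraries a group. Replicates were further apart than counting error gives: chi-square averaged 4.07 per gene between the sgGal4-4 libraries, 18.7 between those of sgMiat-6 and 13.7 between those of sgMiat-96. On simulated data of 12976 genes, 43.8% of 48 genes changed 1.5-fold with both guides and all 47 changed 2-fold were recovered. Far fewer genes changed there than were called in the data, so these shares do not carry over. The length trend was removed by a lowess offset per library (span 0.3). CPM per kb divides CPM by the length of the kept transcript. Alternatives were DESeq2 1.42.0, other scalings, no filter, other rows, the listed counts, a replicate block and leaving out each library.

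The 39 members and the other gene lists were chosen with earlier results of these data known. Every member is named. Values per library are given for members called with an absolute log2 fold change of at least 1, called in opposite directions with the 2 guides, or with the highest control level per kb in their role, and for others where the text needs them. Of each other list up to 4 called genes with the smallest adjusted p are named, as are germline and Polycomb target genes that were switched on or off. Some genes that this rule would name are not reported here. Sequences and gene coordinates are from RefSeq on GRCm38.p6, with start regions used for 35 members.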

Additional observations from a re-analysis of the deposited data

Results flagged for a closer look

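The effects of the 2 Miat guides differed at 16 members by edgeR's test of sgMiat-96 against sgMiat-6 (adjusted p under 0.05, 2 libraries a group). That is 41.0% of the 39 members, near the 36.7% of all genes tested. Lower with sgMiat-96 were Pcgf3, with a log2 difference of -0.75, Phc3 (-0.74), Tet2 (-0.68), Kdm2b (-0.66), Dnmt3a (-0.62), Suz12 (-0.55), Mtf2 (-0.47), Uhrf2 (-0.38) and Bmi1 (-0.34). Higher with sgMiat-96 were Phf1, with a log2 difference of 0.68, Ring1 (0.54), Pcgf1 (0.54), Mbd3 (0.53), Pcgf2 (0.51), Cbx8 (0.42) and Phc2 (0.39). Of these 16, 7 were also called with the length trend removed: Uhrf2, Mbd3, Suz12, Pcgf2, Pcgf3, Phc2 and Kdm2b. In that fit 30.8% of the 39 members and 23.9% of all genes tested were called between the guides. Across the 39 members the Spearman rho of transcript length with this difference was -0.60, and it was 0.09 once the trend was removed, both given as descriptions. No other member's guide difference passed the test, and groups of 2 libraries were not examined for outlying samples.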

How the results depend on the processing

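With both guides, 16 of the 25 members called kept their call and direction under all 14 alternatives: Cbx7, Ezh1, Kdm2b, Mbd3, Pcgf2, Pcgf3, Pcgf5, Phc2, Phc3, Phf1, Phf19 (which passed the filter only through the Miat libraries), Rbbp4, Rnf2, Suz12, Tet2 and Uhrf1. With sgMiat-6 14 of 21 did, with sgMiat-96 13 of 26, and between the guides 1 of 16. Direction turned in called results with the length trend removed. With both guides the values were then 0.11 for Dnmt1, 0.58 for Dnmt3a, 0.26 for Tet1, 0.37 for Tet3 and -0.024 for Pcgf1. With sgMiat-6 Tet3 was 0.23. With sgMiat-96 Dnmt1 was 0.18, Dnmt3a 0.55, Tet1 0.53, Tet3 0.52 and Mbd2 -0.33. Between the guides Tet1 was 0.55 and Tet3 0.29. The comparison of sgMiat-96 with sgMiat-6 moved most. Its members higher, 7, became 1 and its members lower, 9, became 15 with total counts in place of TMM, a scaling that moved the median of all genes with both guides to -0.13, and its genes called, 4852, became 3156 with the length trend removed. Leaving out 1 library at a time gave 0 to 7 members higher, 1 to 13 lower and 1124 to 5740 genes called, lowest without sgMiat-96 replicate 1. The cause was not tested. Counts of calls in the other comparisons stayed within 1.5 times. Same-numbered libraries did not deviate together (correlations of 0.01, -0.09 and -0.21), so replicate numbers are not taken as pairs. With a replicate block, 12 members rose and 13 fell with both guides, among 8341 genes called. A crossed pairing of the sgMiat groups, chosen after seeing the data, gave 7 members higher, 11 lower and 5757 genes called between the guides. Another 66 sign changes occurred where neither fit made a call. With 2 libraries a group small fold changes can be missed, and the simulation does not give their share in these data.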

Other observations

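The members Uhrf1, which rose, and Dnmt1, which fell in the fit that keeps the length trend, act on newly copied DNA. Genes of DNA replication and S phase were mostly higher in the Miat libraries. Of 28 listed and tested, 19 rose and 2 fell with both guides by edgeR's test, with a median log2 fold change of 0.46, against 0.00 for all genes tested. The called share was 75.0%, where 66.5% of all genes were called, 33.1% higher and 33.4% lower. With the length trend removed 17 rose and 2 fell, with a median of 0.31. Ccne2, a cyclin that drives entry into S phase, had 40.1 CPM in sgGal4-4, 101 in sgMiat-6 and 85.4 in sgMiat-96, a log2 fold change of 1.21 ± 0.12 (adjusted p = 1.45e-06). Ccne1, its close relative, rose by 1.09 ± 0.11 (adjusted p = 1.81e-06). Gins2, a subunit of the replicative helicase, rose by 1.21 ± 0.11 (adjusted p = 5.40e-07), and by 0.73 with the length trend removed. Chaf1b, a subunit of the chaperone that places histones on new DNA, rose by 0.93 ± 0.10 (adjusted p = 2.33e-06). The 2 genes that fell were Mcm6, a helicase subunit, at -0.80 ± 0.09 (adjusted p = 4.38e-06), and Pola1, the catalytic subunit of polymerase alpha, at -0.63 ± 0.12 (adjusted p = 3.56e-04). Removing the length trend took Pola1 to -0.28. They are named because they were the exceptions, after their values were seen.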
